A study of Mus musculus with 6 samples.

Results

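The acute-phase genes described here are 9 mouse genes taken by symbol from the 54532 gene identifiers of the deposited count table: the serum amyloid A genes Saa1, Saa2, Saa3 and Saa4, the lipocalin gene Lcn2, the haptoglobin gene Hp and the orosomucoid genes Orm1, Orm2 and Orm3. They were chosen by name as a family, with the knockout and control counts of this table already known. Saa3 and Lcn2 in particular had been picked out by small p-values in the same comparison, so the knockout and control values of the members are given as a description. All 9 passed the filter on low counts.

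Epididymal white adipose tissue, the fat depot beside the testis, was sequenced after 16 weeks of high-fat diet. The knockout mice were PD-1 fl/fl Lyz2-Cre, in which a Cre recombinase under the Lyz2 promoter removes the inhibitory receptor PD-1 from macrophages, neutrophils and other myeloid cells. The controls were PD-1 fl/fl littermates without Cre. Each group held 3 libraries on the same diet, and strain and age are not stated in the labels. Each title carries a different number, but the labels do not tie libraries to separate mice. The p-values thus measure the spread between these libraries, which may differ from that between mice. Pairs of libraries within a group differed far beyond counting error, with a chi-square per degree of freedom of 56.8 to 1112. Library totals were 22813206 to 25441746 counts in knockouts and 20108185 to 27225533 in controls.

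Control replicate 2 had the profile of liver rather than fat, and it is kept in the values below with the fit without it beside them. The hepatocyte transcript Alb reached 148656 CPM (counts per 1e+06 counts of the library, scaled by TMM) there, and Adipoq, the adipocyte hormone adiponectin, 11.2 CPM. TMM scaling put CPM in this library above counts per 1e+06 of its total, as its 1662139 Alb counts among 20108185 show. Where an order is given per library total, it is that of counts over total counts. In the other libraries Adipoq stood at 817 to 2614 CPM in knockouts and at 1719 and 3649 CPM in controls. Liver transcripts were not limited to that library. Alb was at 4.02, 654 and 57.6 CPM in knockout replicates 1 to 3, and at 7.38 and 3879 CPM in control replicates 1 and 3. Of 15 hepatocyte markers, 5 were at 0 counts in control replicate 1 and 1 in knockout replicate 1, while all 15 were detected in the 4 other libraries. Under 3 counts, the floor of detection used here, were 5 in control replicate 1 and 6 in knockout replicate 1. Pdcd1, which encodes PD-1, had 19, 19 and 5 counts in knockouts against 13, 0 and 0 in controls, too few in tissue that also holds T cells to check the genotype.

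The acute-phase response is the change in plasma proteins that follows infection or tissue injury. Interleukin-6, interleukin-1 and tumour necrosis factor act through STAT3, C/EBP and NF-kappaB factors on hepatocytes, which then secrete serum amyloid A, haptoglobin and orosomucoid. Fat makes several of these proteins itself: adipocytes and macrophages of obese fat express Saa3, and adipocytes express Hp, Lcn2 and Orm1. Serum amyloid A proteins ride on high-density lipoprotein and attract leukocytes, lipocalin-2 binds bacterial iron carriers, haptoglobin captures free hemoglobin, and orosomucoids carry lipophilic molecules and dampen inflammation. Haptoglobin and lipocalin-2 are also stored in neutrophil granules.

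The serum amyloid A genes lie together on chromosome 7 of mm10. Saa3 occupies chr7:46711998-46715700, Saa4 chr7:46727998-46732603 and Saa1 chr7:46740497-46742980, all on the minus strand, and Saa2 occupies chr7:46751790-46754313 on the plus strand. The orosomucoid genes form a plus-strand cluster of Orm1 (chr4:63344560-63348163), Orm3 (chr4:63356162-63359511) and Orm2 (chr4:63362449-63365878). Lcn2 lies at chr2:32384633-32388252 and Hp at chr8:109575128-109579172, both on the minus strand. All 9 are annotated as protein coding.

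Promoter windows from RefSeq (GRCm38.p6), 250 bases before to 50 after the start, were found for 7 of the 9 members, and not for Hp and Orm1. Those of 4 genes are shown because Saa3 and Lcn2 differed in opposite directions, and because Saa1 and Saa2 have nearly the same window. Sequences run 5′ to 3′ on the gene's own strand, and capitals mark matches on either strand to TTNNGCAA, the letters of a C/EBP site.
Saa3 (chr7:46715627-46715926, minus strand): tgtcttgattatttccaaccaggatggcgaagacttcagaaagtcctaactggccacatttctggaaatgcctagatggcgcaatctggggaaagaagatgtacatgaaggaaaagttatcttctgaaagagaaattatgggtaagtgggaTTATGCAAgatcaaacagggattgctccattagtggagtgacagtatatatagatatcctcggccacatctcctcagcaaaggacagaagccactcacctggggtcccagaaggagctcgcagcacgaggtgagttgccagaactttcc
Lcn2 (chr2:32387690-32387989, minus strand): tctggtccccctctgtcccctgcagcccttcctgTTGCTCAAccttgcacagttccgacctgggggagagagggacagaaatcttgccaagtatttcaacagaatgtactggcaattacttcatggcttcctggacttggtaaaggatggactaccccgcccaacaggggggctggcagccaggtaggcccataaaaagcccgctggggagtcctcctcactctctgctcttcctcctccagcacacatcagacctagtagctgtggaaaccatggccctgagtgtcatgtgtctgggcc
Saa1 (chr7:46742931-46743230, minus strand): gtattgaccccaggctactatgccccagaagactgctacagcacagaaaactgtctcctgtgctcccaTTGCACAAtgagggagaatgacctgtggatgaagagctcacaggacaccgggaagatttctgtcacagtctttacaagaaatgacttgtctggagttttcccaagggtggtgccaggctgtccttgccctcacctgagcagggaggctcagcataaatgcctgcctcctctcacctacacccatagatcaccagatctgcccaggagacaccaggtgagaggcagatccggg
Saa2 (chr7:46751583-46751882, plus strand): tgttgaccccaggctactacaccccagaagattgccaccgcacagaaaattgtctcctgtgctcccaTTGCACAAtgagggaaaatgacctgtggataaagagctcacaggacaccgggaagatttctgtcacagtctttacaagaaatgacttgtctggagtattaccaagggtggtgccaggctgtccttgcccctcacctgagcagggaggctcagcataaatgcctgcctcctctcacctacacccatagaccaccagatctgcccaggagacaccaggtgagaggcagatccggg

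The C/EBP letters occurred in all 7 windows and in 10.8% of the 32851 RefSeq promoter windows of the same length. In Saa3 the match TTATGCAA lay at −99 to −92 from the start, and in Lcn2 the match TTGCTCAA lay at −216 to −209. Saa1 and Saa2 shared the match TTGCACAA, at −182 to −175 in Saa1 and −183 to −176 in Saa2. Their windows were 95.4% identical, against 47.9% between Saa1 and Saa3. The letters of a kappaB site (GGGA, any 4 bases, then CC) and TTCNNNGAA of a STAT site, each searched on both strands, occurred in none of the 7 windows and in 20.7% and 8.30% of all windows. TATAAA, on either strand, occurred in Orm2 and Orm3 alone of the 7, and in 13.6% of all windows. None of the matches in the 7 windows overlapped another. The matches are letters in these windows and say nothing about binding.

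Sequence likeness also bears on the counts, since reads of near-identical copies can be split or lost. The Saa1 and Saa2 transcripts were 93.9% identical over 609 aligned bases, and 14.8% of the 50-base stretches of Saa1 also occurred in a family member. For Orm1 and Orm2 these shares were 20.4% and 21.8%, and the pair was 91.0% identical over 775 bases. The split between Saa1 and Saa2, and between Orm1 and Orm2, is therefore uncertain. Only 1.78% of such stretches of Saa3 were shared, and 0 of those of Saa4.

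Saa3 was higher in every knockout than in every control. It had 933, 1160 and 764 counts in knockout replicates 1 to 3, against 116, 82 and 93 counts in control replicates 1 to 3. As CPM these were 30.5, 40.7 and 29.6 in knockouts and 4.34, 7.33 and 3.41 in controls, a mean of 33.6 ± 6.14 CPM in knockouts and 5.03 ± 2.05 CPM in controls (SD, n = 3 each). The lowest knockout thus stood above the highest control. That control was the library with the liver profile by CPM, and control replicate 1 per library total. On the log2 scale knockouts exceeded controls by 2.75 ± 0.40 (SE) in the edgeR fit, and by 3.13 ± 0.32 without control replicate 2. With controls 2 and 3 both left out it was 2.97. In whole tissue, more cells that express a gene and more of its RNA per cell cannot be told apart.

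The groups were fully apart for 3 members: Saa3, with knockouts above, and Lcn2 and Saa1, with knockouts below. Over all 15928 genes tested, 9.54% had each knockout above each control and 5.61% had each knockout below each control. By edgeR's quasi-likelihood test with Benjamini-Hochberg adjustment, 0 of 9 members were called at an adjusted p under 0.05, as were 0% of all genes with all 6 libraries and 0% of the 16729 genes tested without control replicate 2. The smallest adjusted p over all genes was 0.560 with all 6 libraries, and 1377 genes had an unadjusted p under 0.05. DESeq2 called 4 of 9 members, Saa3 as higher and Lcn2, Saa1 and Saa2 as lower, where it called 3.13% of all genes. Without control replicate 2 DESeq2 called Saa3 and Lcn2, 2 of 9, where it called 2.65% of all genes. Nothing is read from these shares, since the comparison was known when the members were chosen.

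**Figure D1:**
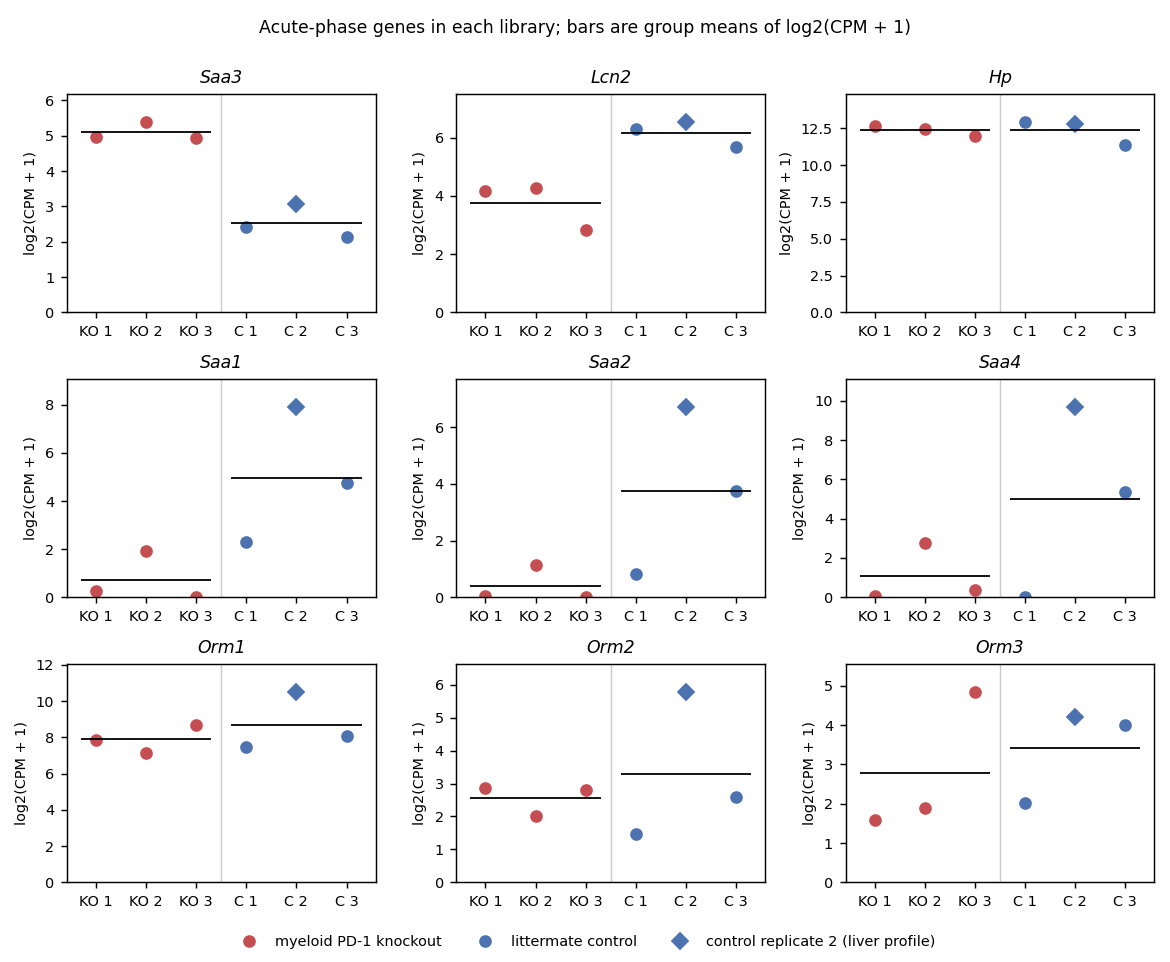
Level of each of the 9 acute-phase genes in each library, as log2(CPM + 1), for the 3 knockouts (KO, red) and 3 controls (C, blue), with group means as black bars and control replicate 2 as a diamond. Saa3 knockouts all sit above, and Lcn2 knockouts all below, the controls, Hp is high everywhere, and Saa1, Saa2, Saa4, Orm1 and Orm2 peak in control replicate 2.

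Macrophage transcripts varied more among the knockouts than Saa3 did. Adgre1, a surface receptor gene used to mark macrophages, was at 268, 379 and 49.3 CPM in knockout replicates 1 to 3 and at 28.9, 12.1 and 33.5 CPM in control replicates 1 to 3. In knockout replicate 3 Saa3 was close to that of knockout replicate 1, at 29.6 and 30.5 CPM, while Adgre1 was at 49.3 and 268 CPM. Summed over 15 macrophage markers, all detected in each library, the level was 1431 to 5860 CPM in knockouts and 487 to 1310 CPM in controls, so this list also separated the groups. Its part in the Saa3 difference was not tested. Fibroblast and progenitor markers, 10 of 10 detected in each library, summed to 1970 to 7480 CPM in knockouts and 372 to 2006 CPM in controls, with overlap at the edge, and their part was not tested either. The mesothelial gene Upk3b was at 0.0327, 15.3 and 0.194 CPM in knockout replicates 1 to 3 and at 0.112, 4.83 and 2.97 CPM in control replicates 1 to 3. Knockout replicates 1 and 3 had 1 and 5 Upk3b counts. Of 9 mesothelial markers, 3 were at 0 counts in knockout replicate 1, 1 in knockout replicate 3, 2 in control replicate 1 and 1 in control replicate 2. In knockout replicate 1, 5 of the 9 were under 3 counts. The sum of these markers was 4.35 to 63.8 CPM in knockouts and 11.5 to 24.0 CPM in controls. The part of mesothelial cells was not tested.

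The other serum amyloid A genes were highest in the libraries with liver transcripts. Saa1 encodes a main acute-phase form of the plasma protein. It had 6, 81 and 0 counts in knockout replicates 1 to 3, against 104, 2663 and 701 counts in control replicates 1 to 3. Each knockout was below each control, and the 3 highest libraries were control replicate 2, control replicate 3 and control replicate 1. Saa2, its close copy, had 1, 35 and 0 counts in knockouts, against 21, 1155 and 341 counts in controls, where knockout replicate 2 lay above control replicate 1. Saa4, which encodes the constitutive serum amyloid A of high-density lipoprotein, had 2, 164 and 8 counts in knockouts, against 0, 9084 and 1108 counts in controls. Counts of 0 to 2 lie below the 3 counts taken as a detection floor per library.

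The log2 fold changes of these 3 genes were large and imprecise. Saa1 stood at −6.45 ± 2.28 (SE) with all 6 libraries and at −3.81 ± 1.78 without control replicate 2. Saa2 stood at −6.51 ± 2.31 and −3.91 ± 1.87 in the same fits, and Saa4 at −7.12 ± 3.27 and −3.25 ± 2.55. With controls 2 and 3 both left out Saa1 was at −1.92, Saa2 at −0.88 and Saa4 at 8.84, the last against a lone control with 0 counts. The direction of Saa4 thus rests on the controls that hold liver transcripts.

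Set against Alb, these genes did not keep a constant ratio. Saa4 followed Alb most closely in the libraries where it passed 3 counts: per 1000 Alb counts it had 8.80 in knockout replicate 2 and 5.39 in knockout replicate 3, against 5.47 and 10.5 in control replicates 2 and 3. Per 1000 Alb counts Saa1 had 4.34 in knockout replicate 2, against 1.602 in control replicate 2 and 6.63 in control replicate 3. Both libraries with least Alb lay above this range. Knockout replicate 1 held 6 Saa1 counts beside 123 Alb counts, or 48.8 per 1000 Alb counts. Control replicate 1 held 104 Saa1 and 21 Saa2 counts beside 197 Alb counts and 0 Saa4 counts, or 528 Saa1 and 107 Saa2 counts per 1000 Alb counts. Knockout replicate 3 held 1483 Alb counts and 0 counts of both Saa1 and Saa2. Saa1 exceeded Saa2 where both were measured, at 2.31 Saa1 counts per Saa2 count in knockout replicate 2, and at 4.95, 2.31 and 2.06 in control replicates 1 to 3.

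**Figure D2:**
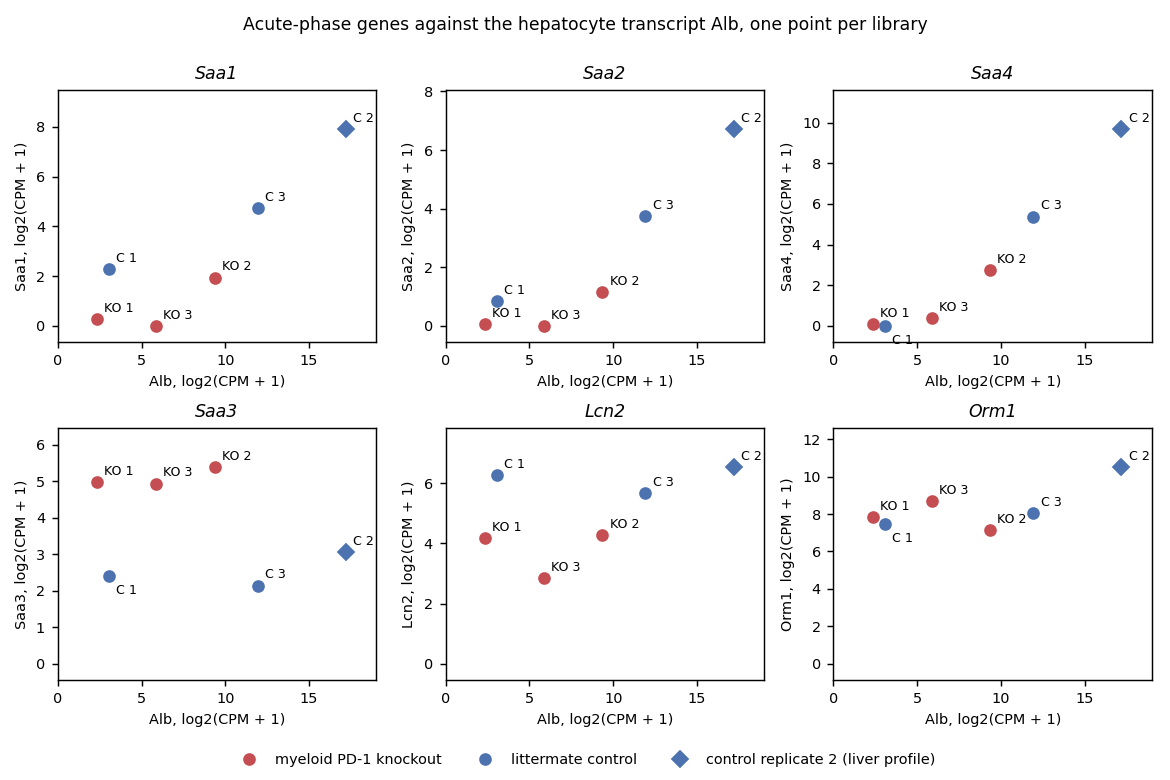
Levels of 6 acute-phase genes against the hepatocyte transcript Alb, both as log2(CPM + 1), with 1 point per library (KO, knockout, red; C, control, blue; diamond, control replicate 2). Saa4 is highest in the libraries with most Alb, while control replicate 1 has Saa1 and Saa2 at 7.38 CPM of Alb, and the 3 knockouts have more Saa3 than the 3 controls, whose Alb lies at 4.02 to 654 CPM in knockouts and 7.38 to 148656 CPM in controls.

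Which serum amyloid A gene led the family differed between the libraries. FPKM, the authors' fragments per kilobase of gene scaled to library size, allows genes of different length to be compared within a library. By this level Saa3 made up 99.0%, 78.1% and 98.7% of the summed FPKM of the 4 genes in knockout replicates 1 to 3, against 46.9%, 0.533% and 3.63% in control replicates 1 to 3. Saa4 led in control replicates 2 and 3, with 73.5% and 53.8%, and Saa1 nearly equalled Saa3 in control replicate 1, with 44.3%. The sum itself was 10.5, 18.3 and 10.1 FPKM in knockouts and 3.08, 494 and 32.3 FPKM in controls. In control replicate 1, the control with least Alb, the family sum was therefore below that of each knockout, while Saa3 alone was at 1.45 FPKM there and at 9.93 to 14.3 FPKM in knockouts.

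**Figure D3:**
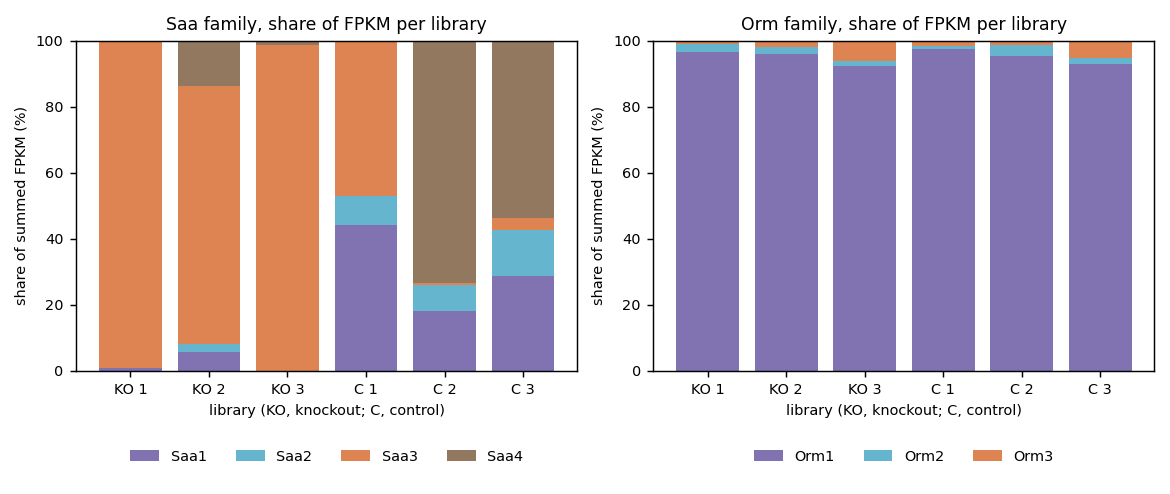
Share of the summed FPKM (percent, 0 to 100) taken by each serum amyloid A gene (left) and each orosomucoid gene (right) in the 3 knockout (KO) and 3 control (C) libraries. Saa3 takes 78.1% to 99.0% in knockouts and 0.533% to 46.9% in controls, and Orm1 takes 92.3% to 97.3% in all 6 libraries.

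Lcn2 was lower in every knockout than in every control, opposite to Saa3. It had 521, 525 and 159 counts in knockout replicates 1 to 3, against 2048, 1019 and 1373 counts in control replicates 1 to 3. As CPM these were 17.0, 18.4 and 6.17 in knockouts and 76.7, 91.1 and 50.3 in controls, a mean of 13.9 ± 6.70 CPM in knockouts and 72.7 ± 20.7 CPM in controls (SD, n = 3 each). The highest knockout was below the lowest control. The library with the liver profile had the highest level by CPM, but the lowest of the controls per library total. The log2 fold change was −2.39 ± 0.50 (SE), and −2.18 ± 0.51 without control replicate 2. Within each library the pair stood in opposite order: there were 1.79, 2.21 and 4.81 Saa3 counts per Lcn2 count in knockouts, and 0.0566, 0.0805 and 0.0677 in controls.

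Neutrophil transcripts were also uneven. S100a9, a calgranulin of neutrophils, was at 1.90, 0.701 and 0.621 CPM in knockout replicates 1 to 3 and at 85.2, 22.3 and 1.10 CPM in control replicates 1 to 3. Its partner S100a8 was at 16.0, 9.43 and 9.39 CPM in knockouts and at 100.5, 17.0 and 9.20 CPM in controls. Control replicate 3 thus had 50.3 CPM of Lcn2 with S100a8 and S100a9 near the knockout levels. Ly6g, which marks mature neutrophils, had 46 counts in control replicate 1 and 0 in the 5 others. Summed over 13 neutrophil markers the level was 13.97 to 28.4 CPM in knockouts and 15.8 to 259 CPM in controls, with 1, 2 and 4 markers at 0 counts in knockouts and 1, 2 and 3 in controls. Of 11 markers of epididymal epithelium, another site of lipocalin expression, 8, 2 and 4 were at 0 counts in knockouts and 7, 9 and 7 in controls, and their sum was 2.06 to 5.72 CPM in knockouts and 3.58 to 39.4 CPM in controls. The part of these cells in the Lcn2 difference was not tested.

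Hp was among the most abundant transcripts of this fat and did not separate the groups. It had 194882, 158372 and 104368 counts in knockout replicates 1 to 3, against 204808, 80915 and 71155 counts in control replicates 1 to 3. By FPKM it ranked 3, 4 and 16 among all genes in knockouts and 11, 26 and 19 in controls. Its mean was 5325 ± 1176 CPM in knockouts and 5839 ± 2805 CPM in controls (SD, n = 3 each), with overlapping groups. The log2 fold change was −0.13 ± 0.69 (SE), and 0.0559 ± 0.57 without control replicate 2. The library with the liver profile, at 7237 CPM, lay within the range of the fat libraries, which ran from 4050 to 6369 CPM in knockouts and from 2609 to 7670 CPM in controls. Per 1000 Adipoq counts Hp was at 5285, 6797 and 1549 for the knockouts, and at 2102 and 1518 for control replicates 1 and 3.

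Orm1 was the main orosomucoid transcript of each library. It had 6940, 4025 and 10484 counts in knockout replicates 1 to 3, against 4743, 16076 and 7190 counts in control replicates 1 to 3. Its level was 227, 141 and 407 CPM in knockouts and 178, 1438 and 264 CPM in controls, highest in the library with the liver profile. The log2 fold change was −1.28 ± 0.92 (SE) with all 6 libraries and 0.23 ± 0.48 without control replicate 2. Orm2 had 191, 87 and 155 counts in knockouts, against 47, 601 and 138 counts in controls, with log2 fold changes of −1.98 ± 1.22 and 0.59 ± 0.59 in the same fits. Orm3 was uneven within both groups, with 62, 78 and 712 counts in knockouts and 82, 195 and 411 counts in controls. Its log2 fold change was −0.13 ± 1.14, and 0.25 ± 1.28 without that library. The direction of all 3 orosomucoid genes therefore turned when 1 library was left out.

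**Figure D4:**
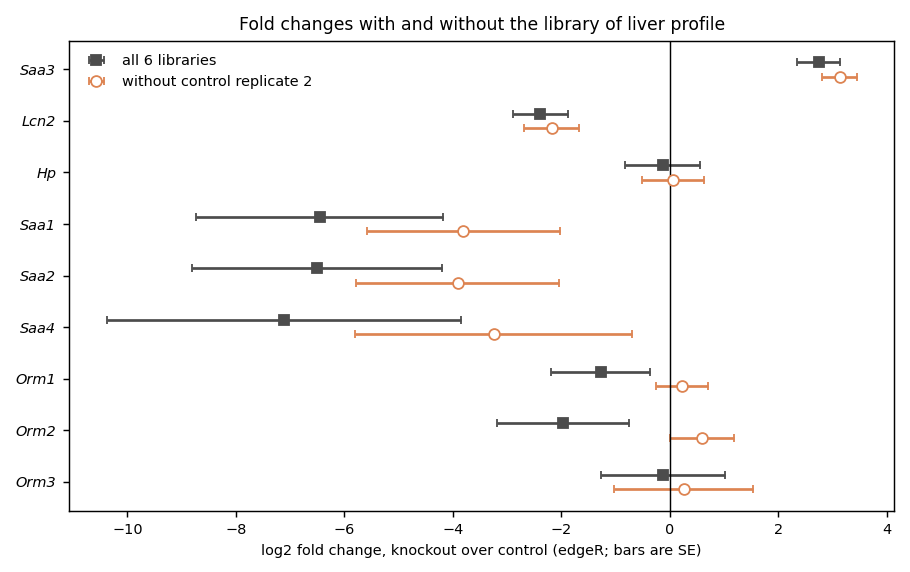
Log2 fold change, knockout over control, of the 9 genes by edgeR (x axis; bars are SE), with all 6 libraries (squares) and without control replicate 2 (circles). Saa3 stays near 3 and Lcn2 near −2, Saa1, Saa2 and Saa4 move toward 0 without that library, and Hp, Orm1, Orm2 and Orm3 change sign.

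The genes that control the response were described by lists. Of 11 inducing cytokines 8 were tested, 4 above and 4 below 0, with a median log2 fold change of −0.46 (−0.26 without control replicate 2), against −0.03 over all genes tested (−0.04 without it). The sign of this median was not stable: it was 0.71 without control replicate 3, 0.42 with no filter on low counts and −0.04 without knockout replicate 3. Their summed level was only 8.38 to 13.5 CPM in knockouts and 9.32 to 19.6 CPM in controls, and Il6 was at 0 counts in knockout replicate 3 and control replicate 2. Tnf, the tumour necrosis factor gene, was at 0.817, 2.42 and 0.427 CPM in knockouts and at 0.187, 0.447 and 0.220 CPM in controls, with a log2 fold change of 2.14 ± 0.90 (SE), and 2.59 ± 1.01 without control replicate 2. By CPM the groups overlapped only through that library, which lay above knockout replicate 3. Tnf had 25, 69 and 11 counts in knockouts and 5, 5 and 6 counts in controls, and per library total the groups did not overlap. Il1b, the interleukin-1 beta gene, was at 1.34, 0.982 and 0.310 CPM in knockouts and at 1.95, 2.59 and 1.32 CPM in controls (−1.14 ± 0.71, and −0.88 ± 0.74 without control replicate 2). Ctf1, which encodes cardiotrophin-1, was at 1.83, 2.14 and 4.66 CPM in knockouts and at 2.92, 13.3 and 3.81 CPM in controls (−1.21 ± 0.75). Its difference rested on the liver-profile library, since without it the log2 fold change was −0.22 ± 0.54. No member of the 6 pathway lists passed the edgeR test, with or without control replicate 2.

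Of 11 cytokine receptors 10 were tested, 6 above and 4 below 0, with a median of 0.10 (−0.10 without control replicate 2). Each knockout was above each control for 1 of the 10, Il11ra1, and below for 1, Il1r1, against 9.54% and 5.61% of all genes. Il11ra1 was at 81.8, 85.3 and 104 CPM in knockouts and at 71.6, 53.8 and 62.6 CPM in controls (0.53 ± 0.27, and 0.44 ± 0.24 without control replicate 2). The tumour necrosis factor receptor gene Tnfrsf1b was at 95.1, 138 and 31.6 CPM in knockouts and at 19.998, 37.4 and 27.6 CPM in controls (1.64 ± 0.58, and 1.92 ± 0.65 without control replicate 2). By CPM its groups overlapped only through that library, and per library total they did not overlap. Il1r1, which receives interleukin-1, was at 26.3, 28.9 and 25.3 CPM in knockouts and at 37.9, 66.1 and 41.4 CPM in controls (−0.85 ± 0.31, and −0.55 ± 0.21 without that library), without overlap. Its partner Il1rap was at 6.05, 8.94 and 3.45 CPM in knockouts and at 3.86, 352 and 14.6 CPM in controls (−4.32 ± 1.68, and −0.56 ± 0.66 without control replicate 2). Of 19 signalling and transcription factor genes 18 were tested, 12 above and 6 below 0, with a median of 0.06 (0.14 without that library). DESeq2 called 1 of them, Hnf4a, with all 6 libraries, and 1, Cebpb, without control replicate 2, where it called 3.13% and 2.65% of all genes. The edgeR log2 fold change of Cebpb was 0.28 and 1.27 in these settings. Nfkb2, Relb and Tyk2, 3 genes, had each knockout above each control and 0 had each below, against 9.54% and 5.61% of all genes. Of the NF-kappaB subunit genes, Nfkb2 and Relb separated the groups, with knockouts above, and Nfkb1 and Rela did not. Nfkb2 was at 41.8, 44.1 and 25.6 CPM in knockouts and 11.8, 12.3 and 22.3 CPM in controls (1.26 ± 0.39, and 1.14 ± 0.40 without control replicate 2). Relb was at 24.3, 19.7 and 16.8 CPM in knockouts and 11.8, 7.96 and 15.4 CPM in controls (0.79 ± 0.35, and 0.59 ± 0.28). Nfkb1 stood at 0.61 ± 0.30 and 0.51 ± 0.29 in the same fits, and Rela at 0.11 in both. Below 0 were Nfkbia (−0.03 and −0.27) and Nfkbiz (−0.29 and −0.46). Hnf4a, a hepatocyte factor, was at 0.0654, 5.02 and 0.233 CPM in knockouts and at 0.599, 489 and 34.5 CPM in controls (−6.62 ± 2.70, and −3.24 ± 2.12 without control replicate 2), highest where Alb was highest.

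Among 15 receptors and partners of the proteins 14 were tested, 7 above and 7 below 0, with a median of 0.02 (−0.25 without control replicate 2). Ccr2, a monocyte chemokine receptor that haptoglobin has been reported to engage, was at 57.2, 46.5 and 51.5 CPM in knockouts and at 13.0, 9.03 and 20.8 CPM in controls, with a log2 fold change of 1.86 ± 0.37 (SE), and 1.63 ± 0.28 without control replicate 2. P2rx7, an ATP-gated channel, was at 27.2, 36.2 and 10.9 CPM in knockouts and at 6.33, 3.85 and 8.21 CPM in controls (2.01 ± 0.54, and 1.79 ± 0.55). DESeq2 called these 2 of the list, with adjusted p-values of 0.00950 and 0.0470, where it called 3.13% of all genes. By edgeR neither was called (adjusted p 0.560 for each). Without control replicate 2 DESeq2 called 1 of the list, Ccr2 (adjusted p 0.000686), and not P2rx7 (0.0514), where it called 2.65% of all genes. Each knockout was above each control for 2 of the 14 and below for 2, against 9.54% and 5.61% of all genes. Fpr1, a formyl peptide receptor, was at 0.360, 0.316 and 0.0388 CPM in knockouts and at 1.39, 4.56 and 0.440 CPM in controls (−3.10 ± 1.17, and −1.90 ± 1.04 without control replicate 2).

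Most further acute-phase genes were lower in knockouts by their fold change, as liver transcripts were. Of 21 other genes induced in the response, 4 were above and 17 below 0, with a median of −4.52 (−2.18 without control replicate 2), and their sum was 2630 to 3050 CPM in knockouts and 4296 to 36210 CPM in controls. Mean log2(CPM + 1) over the 21 genes was 3.63, 5.18 and 3.82 in knockout replicates 1 to 3. In control replicates 1 to 3 it was 3.78, 8.92 and 6.38. Control replicate 1 thus lay within the knockout range, with 6 of the 21 at 0 counts. Each knockout was below each control for 2 of the 21 and above for 1, against 5.61% and 9.54% of all genes. DESeq2 called 6 of the 21 with all 6 libraries, 1 of them as higher (Il1rn), where it called 3.13% of all genes. Without control replicate 2 it called 3, Cp and Serpina3m as lower and Il1rn as higher, where it called 2.65% of all genes. The ceruloplasmin gene Cp, made in fat and liver, was at 79.0, 68.0 and 64.4 CPM in knockouts and at 125, 1391 and 213 CPM in controls (−3.03 ± 0.99, and −1.25 ± 0.30 without control replicate 2), with all knockouts below all controls. Serpina3m, a protease inhibitor gene, was at 8.79, 12.8 and 12.1 CPM in knockouts and at 20.6, 718 and 37.4 CPM in controls (−4.52 ± 1.46, and −1.35 ± 0.34 without it). Il1rn, the interleukin-1 receptor antagonist, was at 27.2, 103 and 4.70 CPM in knockouts and at 2.77, 7.42 and 3.26 CPM in controls (3.33 ± 1.11, and 3.93 ± 1.35 without it). By CPM its groups overlapped only between knockout replicate 3 and control replicate 2, and per library total they did not overlap. All 8 negative acute-phase genes, which hepatocytes lower in the response, were below 0, with a median of −7.06 (−2.36 without control replicate 2). Those of smallest p were Ahsg, Ttr and Alb, all carried in plasma: Ahsg was at 2.16, 42.8 and 4.23 CPM in knockouts and 0.187, 7418 and 279 CPM in controls (−7.29 ± 3.19, and −3.03 ± 2.37 without control replicate 2). Ttr was at 0.261, 67.9 and 5.05 CPM in knockouts and 0.974, 15323 and 327 CPM in controls (−7.74 ± 3.54, and −2.69 ± 2.53). They and the 15 hepatocyte markers, all below 0 with a median of −7.29 (−2.96), thus lay on the same side of 0 as most of the positive genes.

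**Figure D5:**
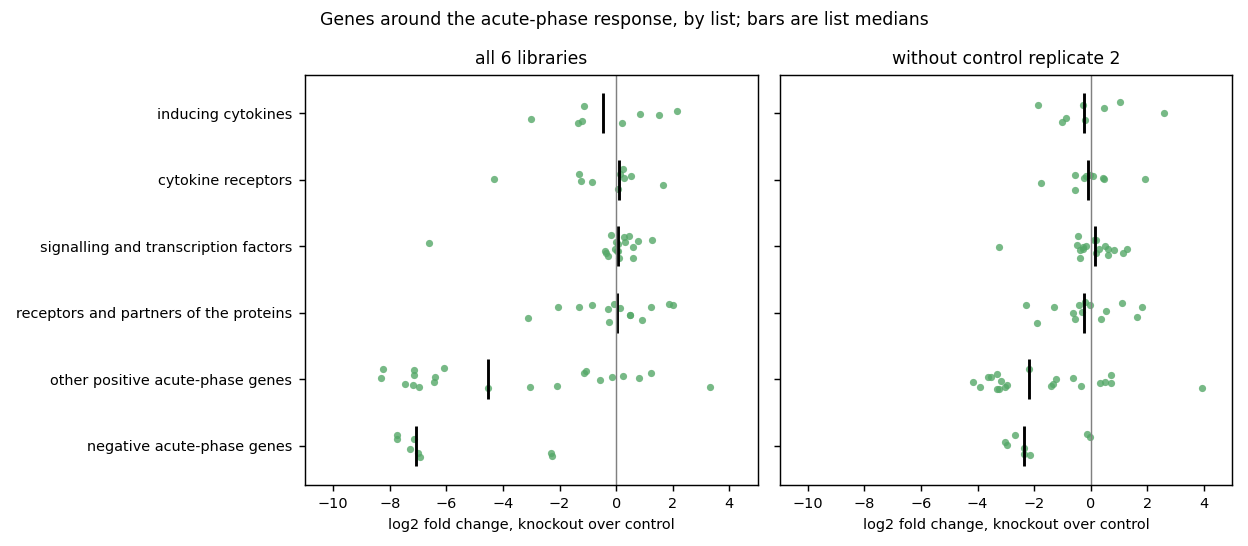
Log2 fold change, knockout over control, of each tested gene in 6 lists around the acute-phase response (green points, 1 per gene; black bars, list medians), with all 6 libraries (left) and without control replicate 2 (right). The cytokine, receptor and signalling lists centre near 0, while the other positive and the negative acute-phase genes lie at medians of −4.52 and −7.06 with all 6 libraries and of −2.18 and −2.36 without that library.

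The genes whose pattern over the 6 libraries lay nearest to 3 members were sought among 13080 genes, by the root mean square difference of log2(CPM + 1) after centring each gene on its mean. Nearest to Saa3 were Trac, the T cell receptor alpha constant gene (0.48), and the cell division genes Ccnb2 (0.51) and Cdk1 (0.56). Nearest to Lcn2 were the histidine decarboxylase gene Hdc (0.48), the mitochondrial tRNA gene mt-Te (0.55) and the prostaglandin transporter gene Slco2a1 (0.59). Hdc was at 1.80, 2.67 and 0.776 CPM in knockouts and at 6.97, 7.60 and 6.93 CPM in controls. Nearest to Hp were Slc35b3 (0.17), Tpbgl (0.17) and Rfc3 (0.22), at far lower levels. These are distances over 6 libraries, 1 of them with a liver profile, and carry no test.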

How the data were processed

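Per the submitters' processing notes, the tools were featureCounts 1.5.0-p3, HISAT2 2.0.5, fastp with no version, and StringTie 1.3.3b, and the build was mm10. The strand setting of the counts and the annotation used are not given in the sources used. The authors deposited raw counts per gene, which were used for the fits, and FPKM values, which were used only to compare genes within a library and in alternatives. Symbols came from GENCODE vM21 (GRCm38, the assembly of mm10) for 54409 of 54532 identifiers.

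All genes passing filterByExpr were fitted in R 4.3.3 by the robust quasi-likelihood test of edgeR 4.0.16, with TMM scaling and Benjamini-Hochberg adjustment at 0.05. SE is the log2 fold change over the root of F. DESeq2 1.42.0 and limma-voom (limma 3.58.1) were alternatives, with other filters, scalings, FPKM, each library left out in turn, a term for the 2 libraries with adjacent title numbers, and control replicates 2 and 3 left out together. DESeq2 and limma-voom without control replicate 2 were added after the data were seen. The fits were also run on simulated counts with known changes, and the outcome is not reported here. Library totals of 20108185 to 27225533 leave counts under 3 at the floor, and counting error is not the replicate error. Replicates are numbered in record order, with no pairing, and none were duplicates.

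The members and gene lists were chosen with earlier results of these data known. Named are all members, the 3 genes of smallest edgeR p in each pathway list, stated marker genes, and the 3 nearest patterns to Saa3, Lcn2 and Hp. Il6, Ly6g, Cyp2e1, Pdcd1, Cebpb, Tyk2, Nfkb1, Rela, Nfkbia, Nfkbiz and Il11ra1, and the motifs searched, were added after their values were seen.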

Additional observations from a re-analysis of the deposited data

How the results depend on the processing

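Saa3 stayed above 0 and Lcn2 below 0 in all 18 alternative settings, at 2.21 to 3.13 and −2.64 to −2.04. Both had been picked by small p-values in this comparison, and their groups were fully apart, so leaving out libraries could hardly turn these signs. The setting with a looser threshold, an adjusted p under 0.1, repeats the main fold change. The stable signs are therefore no independent support. Both were called by DESeq2 (log2 fold change 2.74, adjusted p 5.30e-05, and −2.40, 0.00691) and by DESeq2 without control replicate 2 (3.13, 5.51e-15, and −2.18, 0.00673), as were Saa1 and Saa2 with all 6 libraries (−6.47, 0.0105, and −6.54, 0.0136). edgeR and limma called 0 genes in each setting, and DESeq2 530, or 469 without control replicate 2. With 1 library left out, log2 fold changes ranged from −0.48 to 0.12 for Hp, −1.78 to 0.23 for Orm1, −2.52 to 0.59 for Orm2, −2.31 to 0.37 for Orm3, −9.72 to −3.81 for Saa1, −10.8 to −3.91 for Saa2 and −10.6 to −3.25 for Saa4. Hp, Orm1, Orm2 and Orm3 also changed sign without control replicate 2 in DESeq2 (0.0649, 0.24, 0.59 and 0.26), and Hp, Orm1 and Orm2 in limma-voom (0.23, 0.14 and 0.70). Without control replicates 2 and 3, Orm1 was at 0.55, Orm2 at 1.55, Orm3 at 1.82, Saa4 at 8.84, Il1rap at 0.69, Hnf4a at 1.58, Ahsg at 6.43, Ttr at 4.66 and Alb at 5.03. The lone control is there assumed to vary like the knockouts. The cause of these changes was not tested. With a term for the pair of libraries whose titles carry adjacent numbers (1 per group), Orm3 was at −1.17, Saa1 at −7.12, Saa3 at 2.78 and Lcn2 at −2.50, and 0 genes were called. No paired analysis was possible because the labels give no replicate numbers shared by all libraries. Counts were low for Pdcd1, and near the floor for Saa2 and Saa4 in some of the fat libraries, so a difference there could be missed.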

Other observations

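The ratio of Orm3 to Orm1 was highest in 1 library of each group. Orm3 counts were 6.79% of those of Orm1 in knockout replicate 3, and 5.72% in control replicate 3, the pair whose titles carry adjacent numbers. In the other libraries the share was 0.893% and 1.94% in knockout replicates 1 and 2, and 1.73% and 1.21% in control replicates 1 and 2. The level of Orm3 itself showed the same split only when the liver-profile library was set aside. It was at 27.6 CPM in knockout replicate 3 and 15.1 CPM in control replicate 3. Knockout replicates 1 and 2 were at 2.03 and 2.74 CPM, and control replicate 1 at 3.07 CPM, while control replicate 2 was at 17.4 CPM. The labels do not say what the numbers stand for, and with 1 library per group in this pair the differences in ratio and level were not tested.

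Cyp2e1, an enzyme counted among the hepatocyte markers, was also high in a library with little Alb. It was at 117, 286 and 1991 CPM in knockout replicates 1 to 3 and at 8089, 16956 and 2471 CPM in control replicates 1 to 3. Each knockout was below each control, which held for 1 of the 15 hepatocyte markers, against 5.61% of all genes. DESeq2 called Cyp2e1 with all 6 libraries and not without control replicate 2. Control replicate 1 thus had 8089 CPM of Cyp2e1 beside 7.38 CPM of Alb. That library also had the most Saa1 per Alb count, and all 46 Ly6g counts of the series.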
